A study of Oryctolagus cuniculus with 4 samples.

Results

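Of the 29587 rabbit genes listed in the deposited count tables, 187 had 50 or more distinct exon start positions. Of these, 148 also had 10 or more counts in at least 2 of the 4 libraries, and these 148 many-exon genes are described here. The number of exons of a gene is given as its number of distinct start positions. When overlapping exons of a gene were joined, 127 of the 148 still had 50 or more, and 21 had fewer. The 148 genes had a median of 61.5 exons (range 50 to 155) and a median summed exon length of 9072.5 bases (4489 to 48241). For comparison, the 19956 genes with any count had a median of 7 exons and 1683 bases.

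At the edge of the rule, 13 of the genes had exactly 50 exons and 12 listed genes had 49. The second-highest count of a gene over the 4 libraries was 10 at the lowest inside the rule and 8 at the highest outside it. The 39 genes with 50 or more exons and too few counts held at most 60 counts each over all libraries.

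RNA came from tendon stem/progenitor cells of New Zealand White rabbits, the dividing cells of tendon that can form new tendon cells. One group (noPRP) was cultured in medium without platelet-rich plasma, and the other (PRP) with 10% (v/v) of it added. Platelet-rich plasma is a platelet-enriched blood fraction rich in growth factors. Each group held 2 libraries, of 20100175 and 20947284 counted reads without PRP and 24064713 and 23829027 with it. Age, sex, passage and culture time are not given in the sources used here. Whether libraries of 1 group stem from different rabbits or dishes is not in the labels, so p-values measure only the spread between these libraries, which may be technical.

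Genes with very many exons often code for long proteins built of repeated units. In fibrillar collagens, the rod-like proteins that give tendon its tensile strength, a triple helix of Gly-X-Y repeats is spread over many short exons whose lengths are multiples of 9 bases. Fibrillins, which form elastic microfibrils, and related matrix proteins repeat an EGF-like module that is commonly coded by a single exon. Motor proteins such as dyneins, and giant scaffold and ubiquitin ligase proteins, have many exons of mixed length.

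The files pair the Ensembl identifiers with exon positions and not with gene symbols, and the gene table used here, from another rabbit assembly, holds 0 of the identifiers. The genes are therefore described by chromosome, first and last base in the OryCun2.0 build and by exon structure. The labelled cell type was not checked against tendon markers for the same reason. GL numbers are sequences not placed on a chromosome.

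Exon lengths of the collagen type were found in some of the 148 genes. Interior exons of 45, 54, 99, 108 or 162 bases, the lengths typical of triple-helix exons, made up 8.16% of the 9134 interior exons of the many-exon genes. They made up 3.09% of the interior exons in the 7493 other genes with 10 or more exons. Exons of exactly 54 bases made up 3.22% against 0.546%, and exons with a length divisible by 9 made up 20.3% against 13.5%. Exons of 39 to 44 codons, the size of an EGF-like module, made up 6.31% against 4.77%. These shares are pooled over all interior exons, and the few genes described next hold much of the excess of triple-helix lengths. All are properties of the annotation, given without a test.

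Of the 148 genes, 11 had 20 or more interior exons of triple-helix length. In 10 of them the median interior exon was exactly 54 bases long. The exception was the 152-exon gene on chromosome 7 from 90491109 to 90706612, which had 31 exons of these lengths, 0 of them of 54 bases, and a median interior exon of 105 bases. In the whole annotation 13 genes had 20 or more such exons. The other two, with 55 exons on chromosome 3 and 65 exons on chromosome 12, had too few counts to enter the rule.

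An EGF-type structure, with 20 or more interior exons of 39 to 44 codons, was found in 3 of the 148 genes. It was most extensive in the 64-exon gene on chromosome 17 from 23801096 to 24059362 (40 of 62 interior exons) and in the 66-exon gene on chromosome 3 from 11896388 to 12132314 (40 of 63).

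Counts on the many-exon genes together were 3.95% of noPRP replicate 1 (Wilson 95% interval 3.939 to 3.956) and 6.72% of noPRP replicate 2 (6.712 to 6.734). They were 3.55% of PRP replicate 1 (3.539 to 3.554) and 1.59% of PRP replicate 2 (1.582 to 1.592). The intervals cover counting error only. The group means were 5.34% ± 1.96 without PRP and 2.57% ± 1.39 with PRP (SD, n = 2 each), a difference of 2.77 percentage points (exact permutation test, two-sided p = 0.333, the smallest that 2 against 2 libraries can give). The groups did not overlap, but noPRP replicate 1 and PRP replicate 1 lay close together, and each group's libraries differed more from each other than those 2 did. The 5 genes with the most counts held 49.7% to 62.0% of the counts of the class in each library, and the 11 genes with 20 or more exons of triple-helix length held 26.7% to 34.7%.

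Levels below are CPM (each library's counts set to a common total), adjusted with TMM factors (edgeR's scaling on the bulk of genes) and divided by exon length in kilobases, so that genes of different length can be compared. Ranked on this scale among all genes with a count in the library, the many-exon genes sat near the middle. Their median percentile was 50.2 in noPRP replicate 1, 61.4 in noPRP replicate 2, 45.5 in PRP replicate 1 and 45.3 in PRP replicate 2. In the same order, 15861, 15796, 15981 and 17499 genes had a count. Percentiles and ranks of different libraries thus rest on different totals, the largest in PRP replicate 2. The class spanned nearly the whole range of levels, from below the 1st percentile to percentiles of 98.4 to 99.9. Between 9 and 18 of its genes were in the top 10% of a library, with 14 and 18 without PRP and 12 and 9 with PRP. Without division by length the median percentile rose to between 64.2 and 86.1, because long transcripts give more reads. Values labelled CPM in the paragraphs on changes are also given without that division.

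**Figure D1:**
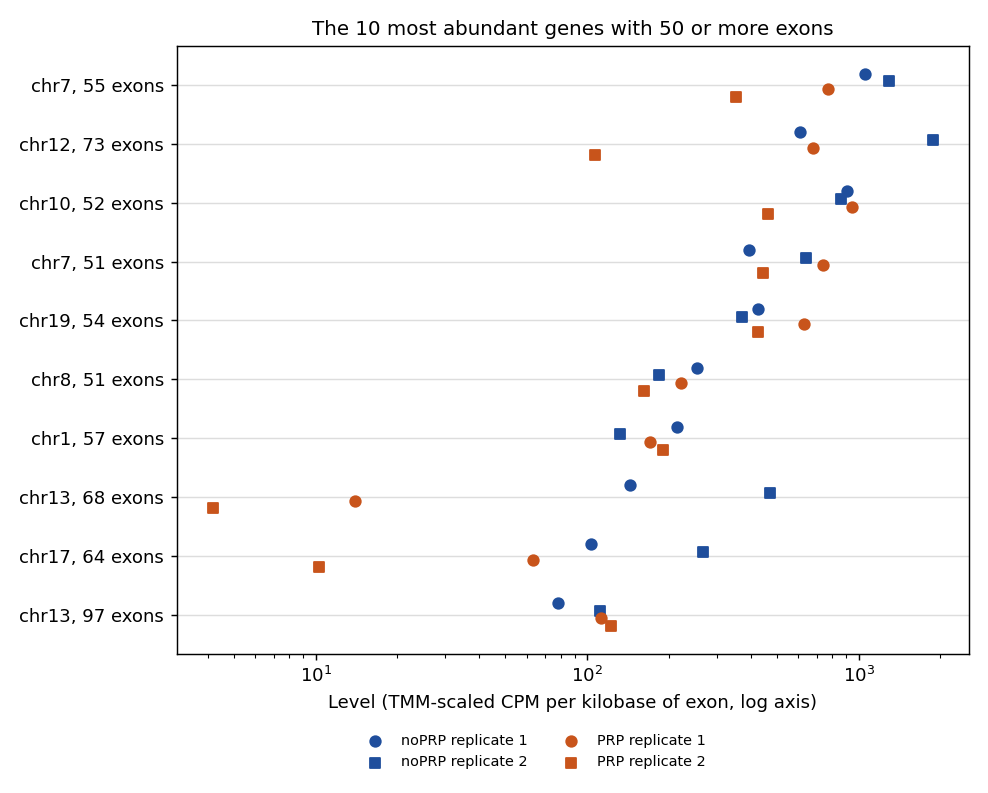
TMM-scaled CPM per kilobase of exon (log axis) of the 10 most abundant genes with 50 or more exons, 1 point per library, with genes in order of their mean over the 4 libraries. The points of the first 5 genes lie between 107 and 1872, while the 68-exon gene on chromosome 13 falls to 14.0 and 4.18 in the PRP libraries.

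By mean level over the 4 libraries, a collagen-type gene was the most abundant. This was the 55-exon gene on chromosome 7 from 129359674 to 129503927, with 43 of 52 interior exons of triple-helix length. Its level was 1060 and 1295 without PRP and 772 and 354 with PRP, ranks 66, 29, 92 and 351 among all genes. Both PRP libraries were below both noPRP libraries, and the log2 fold change of −1.06 (SE 0.84) did not pass the test (edgeR adjusted p = 0.572).

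The gene beside it, with 51 exons on chromosome 7 from 129298064 to 129340978 and 42 of 49 interior exons of triple-helix length, was 4th in the order. It was at 395 and 642 without PRP and at 739 and 443 with PRP. Its groups overlapped, with a log2 fold change of 0.19 (SE 0.82, adjusted p = 0.918 by edgeR). The 2 genes lie 18695 bases apart on opposite strands, and the difference between their changes was not tested.

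The 52-exon gene on chromosome 10 from 34497959 to 34533850, 3rd in the order, had 40 of 49 interior exons of triple-helix length. It was at 904 and 865 in noPRP and at 949 and 464 in PRP. PRP replicate 2 alone was low, the groups overlapped, and the log2 fold change was −0.32 (SE 0.83, adjusted p = 0.861 by edgeR).

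The 5th gene, with 54 exon starts that joined to 42 separate exons on chromosome 19 from 37474785 to 37489593, had 17 of 40 interior exons of triple-helix length. It was at 426 and 372 without PRP and at 628 and 427 with PRP. The PRP libraries were above the noPRP libraries by a narrow margin, and the log2 fold change of 0.40 (SE 0.80) did not pass the test (edgeR adjusted p = 0.82).

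The 2nd gene in the order had another structure: the 73-exon gene on chromosome 12 from 61959516 to 62086766 had 4 exons of triple-helix length. It varied most among the first 5 genes, at 608 and 1872 without PRP and at 682 and 107 with PRP. Its mean without PRP, 1240, was above the 1177 of the first gene. In noPRP replicate 2 it held 2.06% of all counts and in PRP replicate 2 only 0.0917%. The groups overlapped, and its log2 fold change was −1.65 (SE 1.03, adjusted p = 0.506 by edgeR). Levels of these first 5 genes overlapped across libraries, so their order is not fixed beyond that spread.

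Genes 6 and 7 in the order had values near zero change. The 51-exon gene on chromosome 8 from 111526224 to 111654907 was at 255 and 184 without PRP and at 222 and 162 with PRP. The 57-exon gene on chromosome 1 from 18210561 to 18236849 was at 214 and 133 and at 171 and 191. Their groups overlapped, with log2 fold changes of −0.19 (SE 0.78) and 0.06 (SE 0.79). Here too the ranges of the 2 genes overlapped.

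The 8th gene is the 68-exon gene described with the changes below, and the 9th is the EGF-type gene on chromosome 17, with 64 exons. The latter was at 104 and 268 without PRP and at 63.2 and 10.3 with PRP. Both PRP libraries were lower, and the log2 fold change of −2.34 (SE 0.99) missed the threshold (edgeR adjusted p = 0.325). The other EGF-type gene with 40 such exons, on chromosome 3, was far less abundant, with 311 and 213 counts without PRP and 97 and 71 with PRP (log2 fold change −1.63, SE 0.86, adjusted p = 0.44 by edgeR). The 10th gene, with 97 exons on chromosome 13 from 131424350 to 131489925, was at 78.3 and 112 without PRP and at 112 and 122 with PRP (log2 fold change 0.30, SE 0.78).

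The PRP and noPRP libraries were compared to find transcripts whose level depends on the plasma in the medium. Of the 148 genes, 145 passed the filter on low counts and were tested with all other genes. With edgeR's quasi-likelihood test and Benjamini-Hochberg adjustment over all 12707 tested genes, 3 of the 145 differed at an adjusted p of 0.05, which is 2.07% against 0.858% of all tested genes. One was higher with PRP (0.69% against 0.535% of all tested genes) and 2 were lower (1.38% against 0.323%). Of the 2, the fall of the 68-exon gene on chromosome 13 was known beforehand from earlier results of these data. The gene called higher met the count rule of the class only through the PRP libraries. Without noPRP replicate 1, 14 were called lower (9.52% against 3.21% of all genes tested there), and without PRP replicate 2, 0 were (0.218% of all genes, and 11 many-exon genes at an unadjusted p under 0.05, edgeR). The shares of the main analysis rest on counts of 1 and 2 and do not set the class apart from the rest. With DESeq2, 16 of 148 were called lower (10.8% against 2.99% of all genes tested there), so the share turned on the fit. In bulk RNA, fewer cells that express a gene and less RNA per cell cannot be told apart.

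The 68-exon gene on chromosome 13 from 61054286 to 61261797 (ENSOCUG00000013367) fell. This gene is named in the rule for the class, and its change was known beforehand from earlier results of these data. Its call is thus a description of a known change. Its structure was collagen-type, with 46 of 66 interior exons of triple-helix length and 31 of 54 bases. Without PRP it had 19553 and 66465 counts, against 2086 and 520 with PRP, or 889 and 2922 CPM and 86.7 and 25.9 CPM. Both PRP libraries were at least 10-fold below the lower noPRP library, while the noPRP libraries themselves differed by 3.29-fold and the PRP libraries by 3.34-fold. Group means were 1906 ± 1438 CPM and 56.3 ± 43.0 CPM (SD, n = 2 each). The log2 fold change was −5.08 (SE 1.06, adjusted p = 0.0418 by edgeR). Its rank by level went from 646 and 142 without PRP to 4420 and 7038 with PRP. In the alternatives that did not pair libraries by number, the call was lost without PRP replicate 2 (log2 fold change −4.39, edgeR adjusted p = 0.125) and with upper-quartile normalization (adjusted p = 0.0634).

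The 56-exon gene on chromosome 15 from 36026698 to 36510339 (ENSOCUG00000010618) fell as well. It had 4061 and 10284 counts without PRP and 480 and 95 with PRP, or 185 and 452 CPM and 19.95 and 4.73 CPM. The groups were far apart, and again noPRP replicate 2 was the highest and PRP replicate 2 the lowest library. The log2 fold change was −4.69 (SE 1.004, adjusted p = 0.0473 by edgeR). This gene had 17 interior exons of triple-helix length, only 1 of them of 54 bases, and a long summed exon length of 13597 bases. In the alternatives that did not pair libraries by number, its call was lost without PRP replicate 2 (log2 fold change −3.94, edgeR adjusted p = 0.307) and with upper-quartile normalization (adjusted p = 0.0725).

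The only called rise was that of the 66-exon gene on the unplaced sequence GL018752 from 912089 to 943619 (ENSOCUG00000007440). It had 8 counts in each library without PRP and 2255 and 1524 with PRP, or 0.358 ± 0.0085 CPM against 84.8 ± 12.6 CPM (SD, n = 2 each). With fewer than 10 counts in each noPRP library, it entered the class only through the PRP libraries, where it was high. Its call is thus a description of a gene selected in part by its PRP level. With 10 counts required in all 4 libraries, 0 many-exon genes were called higher. The libraries of each group lay close together and the groups far apart, and the log2 fold change reached 7.87 (SE 1.04, adjusted p = 0.00684 by edgeR). It passed in all 13 alternative fits, with an adjusted p of at most 0.0141. Its 66 exon starts joined to 38 separate exons, none of triple-helix length in the interior, so it belongs to the class only by its count of start positions.

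**Figure D2:**
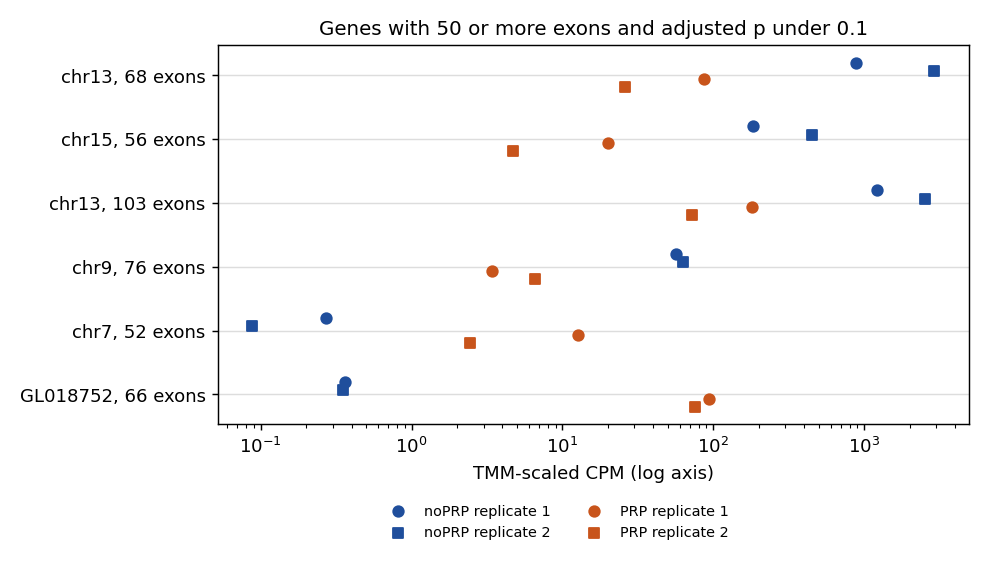
TMM-scaled CPM (log axis) in each library of the genes with 50 or more exons that had an adjusted p under 0.1 and a count in every library, in order of log2 fold change. The groups do not overlap in any of the 6 genes, and the 3 genes on top have their highest point in noPRP replicate 2 and their lowest in PRP replicate 2.

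A further 4 genes had an adjusted p between 0.05 and 0.1 and so did not pass in the main analysis, but their side of the threshold turned on the fit. The 103-exon gene on chromosome 13 from 127008464 to 127410311 had 26865 and 57653 counts without PRP and 4338 and 1456 with PRP (log2 fold change −3.89, SE 0.93, adjusted p = 0.0704 by edgeR). The 76-exon gene on chromosome 9 from 64876399 to 65127988 had 1252 and 1427 counts without PRP and 82 and 133 with PRP (−3.58, SE 0.86, adjusted p = 0.0715 by edgeR). Leaving aside the alternatives added after seeing the data, the chromosome 13 gene passed in 4 of 11 alternatives (adjusted p from 1.15e-04 to 0.425) and the chromosome 9 gene in 3 of 11 (2.15e-04 to 0.494). In the chromosome 9 gene the log2 difference between libraries was 0.14 without PRP and 0.94 with PRP.

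In the other direction, the 52-exon gene on chromosome 7 from 39768217 to 40268759 had 6 and 2 counts without PRP and 304 and 49 with PRP (log2 fold change 5.35, SE 1.23, adjusted p = 0.0641 by edgeR). The 101-exon gene on GL018806 from 805717 to 856250 was not detected without PRP, at 0 counts in each library, and had 23 and 24 counts with PRP. Taking 3 counts over the noPRP libraries together as the floor, it was at least 15.9-fold higher (edgeR adjusted p = 0.0643). Over the same alternatives the chromosome 7 gene passed in 5 of 11 (adjusted p from 1.60e-04 to 0.224) and the GL018806 gene in 3 of the 10 that tested it (0.00892 to 0.381). Both genes had fewer than 10 counts in each noPRP library and so entered the class only through the PRP libraries.

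The rest of the largest values in either direction did not pass. The 86-exon gene on chromosome 17 from 10208112 to 10407982 had 993 and 6316 counts without PRP and 522 and 115 with PRP (log2 fold change −3.56, SE 1.04, adjusted p = 0.133 by edgeR). The 58-exon gene on chromosome 2 from 114699322 to 114889997 went the other way, from 44 and 18 counts to 343 and 174 (3.03, SE 0.95, adjusted p = 0.17 by edgeR). So did the 85-exon gene on chromosome 10 from 6671033 to 7032478, from 91 and 46 counts to 142 and 449 (2.20, SE 0.96). The 3 genes with the most exons were of low level. The 155-exon gene on chromosome 12 from 142199052 to 142741383 had 487 and 999 counts without PRP and 190 and 112 with PRP (−2.29, SE 0.83, adjusted p = 0.246 by edgeR). The 152-exon gene on chromosome 7 had 52 and 143 and then 11 and 16 (−2.78, edgeR adjusted p = 0.24), and the 108-exon gene on chromosome 17 from 38535540 to 39130514 had 84 and 234 and then 27 and 68 (−1.65, SE 0.96, adjusted p = 0.482 by edgeR). Genes with slightly fewer exons were not all low. By mean level among the many-exon genes, the 107-exon gene on chromosome 13 was 30th and the 106-exon gene on chromosome 12 was 25th. The 103-exon genes on chromosomes 13 and 12 were 15th and 81st.

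The log2 fold changes of the 11 genes with 20 or more exons of triple-helix length ran from −5.08 to 1.98. Their median was −0.32, beside 0.04 over all tested genes, and 8 of the 11 were negative (72.7%, against 76.9% of the other tested many-exon genes). The 68-exon gene, whose change was known beforehand, was the 1 of the 11 that passed the test (9.09%, against 0.858% of all tested genes). In 5 both PRP libraries were below both noPRP libraries (45.5% against 23.1% of all tested genes), in 1 both were above (9.09% against 23.8%), and in 5 the groups overlapped. Without the 152-exon gene, which had no exon of 54 bases, the median of the other 10 was −0.20, with 4 below, 1 above and 5 overlapping. The 70-exon gene on GL018833 from 270747 to 310069, whose structure resembles that of the 68-exon gene with 47 of 67 interior exons of triple-helix length and 31 of 54 bases, had similar counts in all libraries. It had 5688 and 5031 counts without PRP and 5014 and 4927 with PRP (log2 fold change −0.08, SE 0.74). The difference between the changes of these 2 genes was not tested.

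Among the less abundant genes of this structure, values lay on both sides of zero. The 59-exon gene on chromosome 13 from 78687278 to 79097751 had 213 and 256 counts without PRP and 208 and 225 with PRP. The 71-exon gene on GL018704 from 6428282 to 6484894 had 1357 and 1288 counts and then 516 and 320, with libraries of a group close together (log2 fold change −1.66, SE 0.78, adjusted p = 0.381 by edgeR). The 52-exon gene on GL018699 from 13319575 to 13444991, with the highest share of such exons (45 of 50), had 43 counts in each noPRP library and 269 and 81 in the PRP libraries (1.98, SE 0.92, adjusted p = 0.376 by edgeR). The 54-exon gene on GL018949 from 72110 to 94586 had 220 and 48 counts and then 173 and 345, and its groups overlapped. The 50-exon gene on chromosome 12 from 56484344 to 56874033 had 73 and 168 counts and then 4 and 43 (−2.22, SE 1.13, adjusted p = 0.422 by edgeR).

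**Figure D3:**
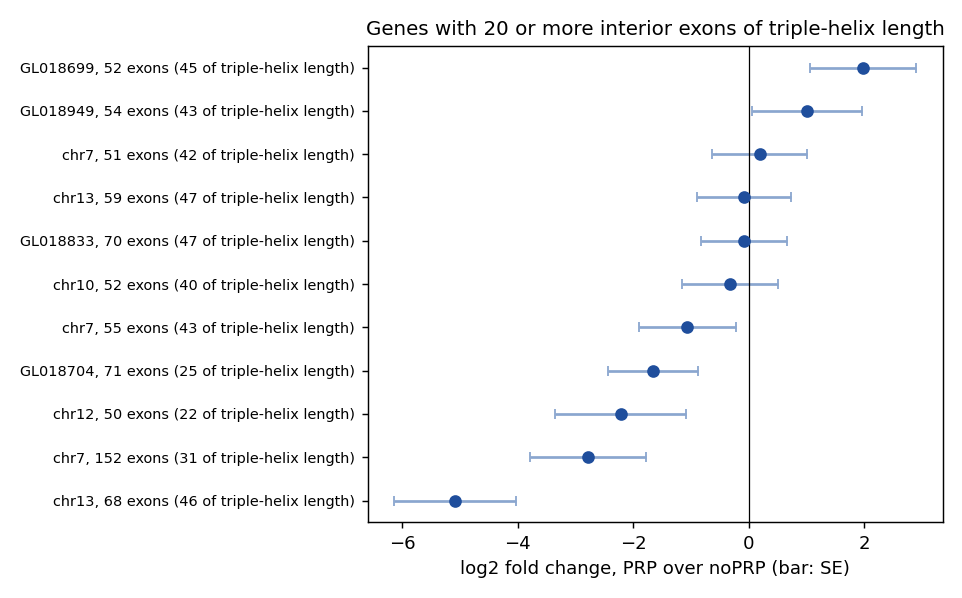
Log2 fold change of PRP over noPRP (point) and its standard error (bar, from the edgeR fit of 2 against 2 libraries) for the 11 genes with 20 or more interior exons of triple-helix length. Only the 68-exon gene on chromosome 13, at −5.08, passed the test, and the values run up to 1.98.

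Across the class as a whole, values lay mostly below zero. The log2 fold change was negative in 111 of the 145 tested genes (76.6% against 48.9% of all tested genes) and positive in 34. The median was −0.996, with quartiles of −2.07 and −0.08, beside a median of 0.04 over all tested genes. Both PRP libraries were below both noPRP libraries in 73 of the 145 (50.3% against 23.1% of all tested genes), and above them in 23 (15.9% against 23.8%). In 49 the groups overlapped. The median moved to −0.52 when noPRP replicate 2 was left out, and to −0.67 for PRP replicate 2. At an unadjusted p under 0.05, 31 were lower with PRP (21.4% against 8.01%) and 7 were higher (4.83% against 5.31%). These counts and the median carry no test, and the genes share libraries, so they are not independent.

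**Figure D4:**
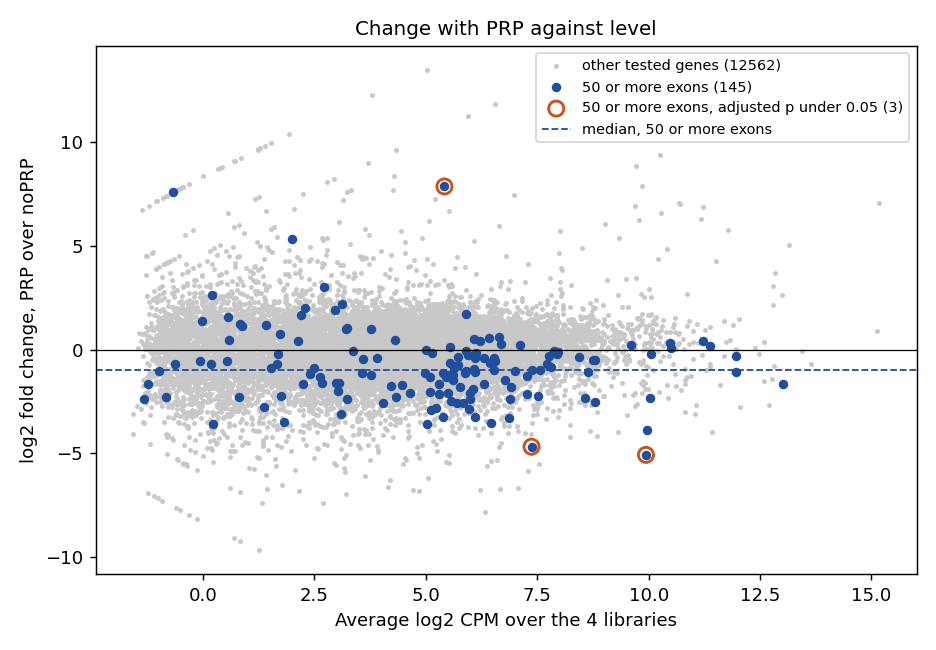
Log2 fold change of PRP over noPRP against average log2 CPM for all 12707 tested genes, with the 145 tested genes of 50 or more exons in blue and the 3 that passed an adjusted p of 0.05 circled. The blue points lie mostly below zero, around their median of −0.996 (dashed line).

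Over all tested genes, the median log2 fold change fell from class to class from 2 to 4 exons upward, passing from above to below zero. The median log2 fold change was 0.20 for genes of 1 exon, 0.29 for 2 to 4, 0.19 for 5 to 9, −0.06 for 10 to 19, −0.40 for 20 to 49 and −0.996 for 50 or more. Within the class it was −0.83 for 67 genes of 50 to 59 exons, −1.14 for 53 genes of 60 to 79 and −1.05 for 25 genes of 80 or more. The 9 tested genes of 49 exons, just outside the rule, had a median of −1.67, and the 13 of 50 exons had −0.68.

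Libraries of the same group differed along the same gradient. Taking noPRP replicate 2 minus replicate 1, the median log2 difference was −0.05 for genes of 1 exon, −0.25 for 2 to 4, 0.44 for 20 to 49 and 0.87 for 50 or more. For PRP replicate 2 minus replicate 1 it was 0.09, 0.29, −0.46 and −0.56 in the same classes. The many-exon genes were higher in noPRP replicate 2 than in noPRP replicate 1 in 110 of 145 cases (75.9% against 51.1% of all tested genes), and lower in PRP replicate 2 than in PRP replicate 1 also in 110 (75.9% against 51.2%). In 55 of 145 the libraries stood in the order noPRP replicate 2, noPRP replicate 1, PRP replicate 1, PRP replicate 2 from high to low (37.9% against 14.4%).

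The difference between groups therefore depended on which libraries were set against each other. The median over the 145 genes was −0.22 for PRP replicate 1 against noPRP replicate 1 and −1.42 for PRP replicate 2 against noPRP replicate 2. It was −0.98 for PRP replicate 1 against noPRP replicate 2 and −0.72 for PRP replicate 2 against noPRP replicate 1. All 4 pairs gave a negative median, and the pair of replicates 1 gave the one closest to zero. A fit with offsets for each library's trend with exon number was added after seeing the data. In it the called genes kept an adjusted p under 0.05: the 68-exon gene on chromosome 13 (log2 fold change −4.17, adjusted p = 0.0284 by edgeR), the 56-exon gene on chromosome 15 (−3.98, 0.0283) and the 66-exon gene on GL018752 (8.72, 6.86e-04). The offsets were drawn from the same 4 libraries and took up part of the group difference as well. In a fit that paired libraries by replicate number, which the labels do not state, neither called fall passed (edgeR adjusted p = 0.171 and 0.186). RNA integrity values are not given in the sources used here, and the part that the exon-number gradient has in the shift of the class was not tested.

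**Figure D5:**
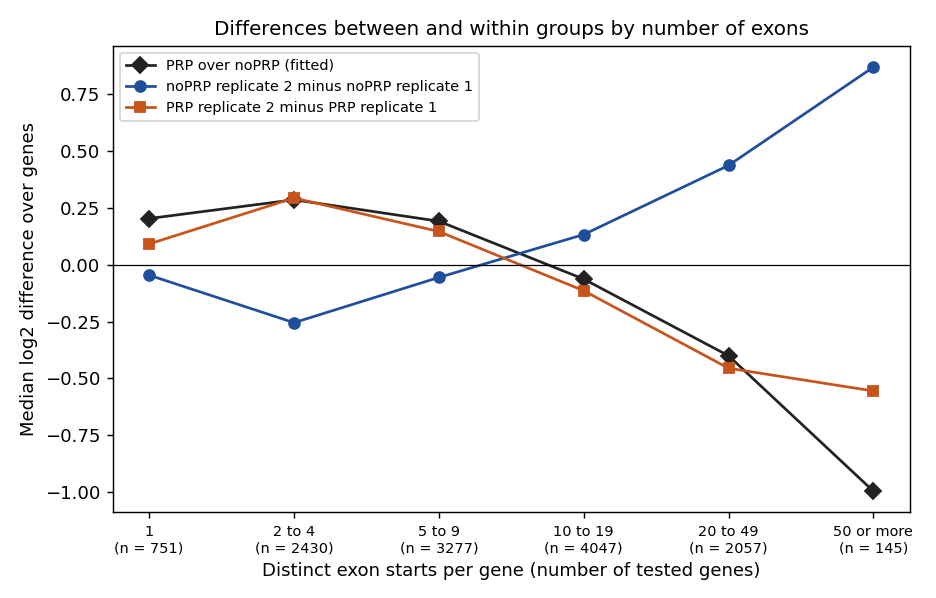
Median log2 difference over the tested genes of each exon class, for PRP over noPRP (black) and for replicate 2 minus replicate 1 within noPRP (blue) and within PRP (orange). From 2 to 4 exons on, the black and orange lines fall with the number of exons, to −0.996 and −0.56 at 50 or more, while the blue line rises to 0.87. Between 1 exon and 2 to 4 exons each line goes the other way.

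Exon number and exon length go together, so genes were also grouped by summed exon length. Among tested genes of 8000 bases or more, the median log2 fold change was −0.20 for 32 genes with under 20 exons, −0.68 for 98 genes with 20 to 49 and −1.04 for 99 with 50 or more. Among genes of 4000 to 8000 bases it was −0.07 for 642, −0.36 for 1022 and −0.79 for 46 genes in the same exon classes. The median was thus lower with more exons within both length classes, and also lower in the longer class within each exon class. The parts of exon number and length were not tested. Position was a further covariate: the 123 tested many-exon genes on chromosomes had a median of −1.06 and the 22 on unplaced sequences 0.23, beside −0.22 and 0.66 for all tested genes of these kinds.

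The spread between libraries of a group was close to that of all tested genes without PRP and somewhat larger with PRP. The median absolute log2 difference between the noPRP libraries was 0.99 over the many-exon genes and 0.98 over all tested genes, and between the PRP libraries it was 0.94 and 0.87. Among genes with at least 100 counts on average it was 1.01 and 0.998 without PRP, and 0.98 and 0.85 with PRP. The median standard error of the log2 fold change was 0.86 over the many-exon genes and 0.88 over all tested genes. The edgeR fit draws the spread of each gene toward that of all genes (11.4 prior and 2 residual degrees of freedom). Likeness of these standard errors is thus partly built in.

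Single genes ranged from nearly level to widely spread. The 57-exon gene on chromosome 19 from 25527496 to 25843562 had 1341 and 1369 counts without PRP and 1450 and 1131 with PRP, and the 60-exon gene on chromosome 10 from 40796275 to 41015940 had 1631 and 1695 and then 1472 and 1400. Their mean absolute log2 differences between libraries of a group were 0.06 and 0.10. A similar value of 0.12 for the 63-exon gene on chromosome 9 from 54750404 to 54894572 rested on 12, 11, 4 and 3 counts, where the added prior count of 2 draws values together. At the other end, the 60-exon gene on chromosome 8 from 100527835 to 100767767 had 501 and 2366 counts without PRP and 634 and 46 with PRP, a mean difference of 2.83. The 57-exon gene on chromosome 19 from 52754375 to 52828097 had 511 and 2798 and then 697 and 109 (2.40), and the 90-exon gene on chromosome 11 from 10319001 to 10906625 had 8 and 50 and then 4 and 29 (2.46). In all 3 of these the groups overlapped.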

How the data were processed

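The deposited files hold unnormalized counts of reads for each gene. The submitters' processing notes list the aligner STAR 2.7.2a, the counter featureCounts 1.6.5 and the build OryCun2.0. Per the file headers, reads were counted over exons of Ensembl release 98 genes, with no option for strand, read pairs, several alignments or overlapping genes; antisense partners and near-identical copies are thus uncertain. A series table with the same counts was not used.

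Exon lengths came from the start and end fields, after joining overlapping exons. Genes were kept by filterByExpr (99.92% to 99.94% of counts), scaled by TMM (factors 0.842 to 1.09) and tested with edgeR 4.0.16 in R 4.3.3 (glmQLFit, glmQLFTest, group as the only term), with Benjamini-Hochberg adjustment over 12707 genes. Residual degrees of freedom were 2 for each gene, and prior ones had a median of 11.4. Log2 values between libraries used a prior count of 2. The steps were tested on simulated data. Alternatives used DESeq2 1.42.0, limma 3.58.1 and the settings in the closing section.

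Genes described singly were those with an adjusted p under 0.05, the 10 highest levels, the 5 largest changes each way (average log2 CPM of at least 1, groups not overlapping), the 3 with the most exons, the 3 with the largest and smallest replicate spread, and those with 20 or more triple-helix exons. The 68-exon gene on chromosome 13 was also named in the rule for the class, with its change known from earlier results. The genes with an adjusted p between 0.05 and 0.1, the EGF-type gene on chromosome 3, the close pairs and the untested genes were added after their values were seen. The class of genes, the rule for names and the lists were chosen with earlier results of these data known. The lists of gene symbols and markers were not applied, since the identifiers carry no symbols.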

Additional observations from a re-analysis of the deposited data

How the results depend on the processing

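The many-exon genes called higher and lower numbered 1 and 2 in the main analysis. Higher calls numbered 2 with DESeq2's size factors and with limma-voom (0.637% and 0.724% of all genes tested there), 3 without a filter (1.15%), 4 with DESeq2 (2.14%) and 1 to 2 with a library left out. Lower calls numbered 9 without a filter (1.68% of all genes), 16 with DESeq2 (2.99%) and 0 to 14 with a library left out, the 14 without noPRP replicate 1 (3.21% of all genes) and the 0 without PRP replicate 2 (edgeR, 11 at an unadjusted p under 0.05). The 9 and 16 lower calls were 6.08% and 10.8% of the many-exon genes tested there. With upper-quartile normalization edgeR called 1 higher and 0 lower (0.362% and 0.11% of all genes, with 31 many-exon genes lower at an unadjusted p under 0.05). Under both stricter rules for the class, joined exons (127 genes) and 10 counts in all 4 libraries (132 genes), edgeR called 0 higher, with 6 and 3 at an unadjusted p under 0.05. The labels do not say that replicate numbers pair libraries, and same-numbered deviations from the group means had a correlation of −0.63 over all tested genes and −0.43 over the many-exon genes. With a replicate block, edgeR called 1 higher and 0 lower (0.362% and 0.0866% of all genes, with 11 many-exon genes lower at an unadjusted p under 0.05), and the 56-exon gene on chromosome 15 lost its call (−4.89, adjusted p = 0.186); the crossed block, chosen after seeing the data, called 9 higher (13% of all genes) and 56 lower (15.2%). Offsets for the exon-number trend, also chosen afterwards, gave 3 higher calls (1.01% of all genes) and a median log2 fold change of −0.075, near zero by construction; in the other fits the median lay between −1.26 and −0.52, the ends being without noPRP replicate 1 and without noPRP replicate 2. The change of the 68-exon gene was −5.07 with upper-quartile normalization (edgeR adjusted p = 0.0634), −5.09 with the replicate block (0.171) and −6.19 to −3.99 with a library left out, of which only the fit without PRP replicate 2 lost the call; its adjusted p ranged from 1.42e-06 (DESeq2) to 0.171, leaving aside the alternatives chosen after seeing the data. Where 1 library of a group remained, its spread was taken from the other group. The median of all tested genes, 0.04 in the main analysis, was 0.20 without a filter, 0.18 with DESeq2 and 0.13 without noPRP replicate 1. The mean of the libraries' median level percentiles was 50.6 per kilobase and 74.999 without division by length. No value changed sign where it had been called, and the cause of the other shifts was not tested. Standard errors of the log2 fold change reached 1.72 among the many-exon genes, some of which had counts as low as 12, 11, 4 and 3.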

Other observations

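Some many-exon genes lie close together: 5 pairs, of 10 genes, were within 500 kb of each other. Their values are given here without a test of the difference. On chromosome 17 the 62-exon gene from 9436496 to 9826281 had 800 and 430 counts without PRP and 3343 and 892 with PRP (log2 fold change 1.73, SE 0.84, adjusted p = 0.4 by edgeR), while the 86-exon gene beside it had a log2 fold change of −3.56. On chromosome 11 the 76-exon gene from 38536981 to 38807128 had 14 and 76 counts and then 4 and 3 (−3.61, SE 1.18, adjusted p = 0.185 by edgeR), and its neighbour from 38988637 to 39361457 had a value of −1.24. On chromosome 16 both genes of the pair were below zero, at −0.83 and −1.66, and on chromosome 21 the values were 0.20 and −0.55. None of these genes passed the test.

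The 3 many-exon genes that were too low to be tested had between 1 and 21 counts in each library. The 54-exon gene on chromosome 6 from 12167397 to 12354451 had 7 and 18 counts without PRP and 1 and 10 with PRP, the 68-exon gene on chromosome 4 from 82735880 to 82939772 had 20 and 7 and then 10 and 8, and the 61-exon gene on GL018819 from 616987 to 860458 had 21 and 2 and then 7 and 10. These values do not separate the groups.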
